A study of Homo sapiens with 4 samples.

Results

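The genes of the nuclear-encoded respiratory chain were examined in the cell lines MDS-L and MDS-L/CDA after exposure to 5-azacytidine (AZA). Genes were chosen by their names on the array, as those beginning with NDUFA, NDUFB, NDUFC, NDUFS, NDUFV, UQCR, COX4 to COX8 or ATP5, without the 3 antisense names. The rule found 91 of 43311 gene names. Of these, 80 were subunits or subunit isoforms, 37 of complex I, 8 of complex III, 19 of complex IV and 16 of complex V. The other 11 were 7 assembly factors of complex I, 2 pseudogenes, ATP5S and ATP5SL, which are not subunits and are described apart. A signal well above background, as flagged by the scanner software, was found on at least 1 array for 84 of the 91 genes, 75 of them subunits, and on all 4 arrays for 74 subunits.

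MDS-L is a human cell line derived from a patient with myelodysplastic syndrome, and MDS-L/CDA is an AZA-resistant line made from it by transduction of CDA, the gene of cytidine deaminase, which breaks AZA down. Both lines were grown in RPMI1640 medium with IL-3 at 20 ng/mL, 2-mercaptoethanol at 50 μM and FBS at 10%. They were exposed for 72 h to 0.1% DMSO as vehicle or to 1 μM AZA, and RNA from each condition was hybridized to 1 array. For the MDS-L array with AZA and the MDS-L/CDA array with vehicle, 1 label field names the opposite treatment while the title, source and description name the treatment used here. The titles and series design give the dose as 1 mM where the other fields give 1 μM. The CDA probe did not reach the background flag on any of the arrays, so it could not check the labels of the resistant line.

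With 1 array per condition there was no replicate and no test was possible, so every difference below is between single arrays. Signals are given as multiples of the 75th percentile of the same array, which was 52.5 and 52.9 intensity units for vehicle and AZA of MDS-L and 40.8 and 37.3 for those of MDS-L/CDA. Where 4 signals follow each other, they stand in this order. Signals of different probes are not comparable with each other. A gene is called higher or lower where both arrays of the comparison measured it well above background and they differed at least 1.5-fold (0.585 on the log2 scale). Of the haematopoietic markers fixed for these cells, 9 of 10 were well above background on at least 1 array, including PTPRC and CD34, while MPO was not on any. None of the 4 epithelial and none of the 4 fibroblast markers was. The repeated spots of bright probes on 1 array had a median SD of 0.11 to 0.19 (log2), which corresponds to 0.17 for a ratio within MDS-L and 0.24 within MDS-L/CDA. That error covers spots only, not cultures or labelling.

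The respiratory chain passes electrons from NADH through complex I and from succinate through complex II to ubiquinone, and then through complex III, cytochrome c and complex IV to oxygen. Complexes I, III and IV pump protons out of the mitochondrial matrix, and complex V, the ATP synthase, uses their return to make ATP. Complexes I, III, IV and V hold subunits of both genomes, and the nuclear-encoded subunits are translated in the cytosol and imported. Blood progenitors and leukemic cells depend on the chain to different degrees.

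The subunits differed little between the arrays as a group. In MDS-L, the median log2 ratio of AZA over vehicle was -0.29 over the 74 subunits measured on both arrays, against -0.16 over all 15107 genes measured on both. The ratio was below 1 for 66 of the 74 subunits (89.2%), against 62.3% of all genes. Genes whose probes were at least as bright as the first quartile of the subunits, 1285 in number, had a median of -0.25 and 79.1% of them were below 1. These are signals of whole cultures, in which fewer cells with a transcript and less of it per cell cannot be told apart. In MDS-L/CDA, the median over the 74 subunits was -0.04, against 0.01 over all 14137 genes, and 44 subunits (59.5%) were below 1, against 48.5% of all genes. The size of the MDS-L shift depended on how the arrays were scaled. The count of subunits below 1 in MDS-L was 44 after quantile normalization, 43 after within-pair loess and 74 with the median of all probes. The median of the subunits was -0.06 after quantile normalization, where that of all genes was -0.04, and it was -0.84 when the median of all probes was used for scaling, where that of all genes was -0.70. Under 3 choices the median of all genes was above 0 while that of the subunits was below it: 0.0033 and -0.14 when scaled to genes above background on all arrays, 0.0088 and -0.07 after within-pair loess, and 0.029 and -0.11 with the 75th percentile over probes above background on all arrays. Under the 11 scalings and probe choices, the median of the subunits minus that of all genes in MDS-L lay between -0.21 and -0.02. Choices that only shift a whole array cannot change this difference, and it was -0.14 under each of them. It was -0.07 after within-pair loess, and -0.02 after quantile normalization and in the authors' value table.

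**Figure D1:**
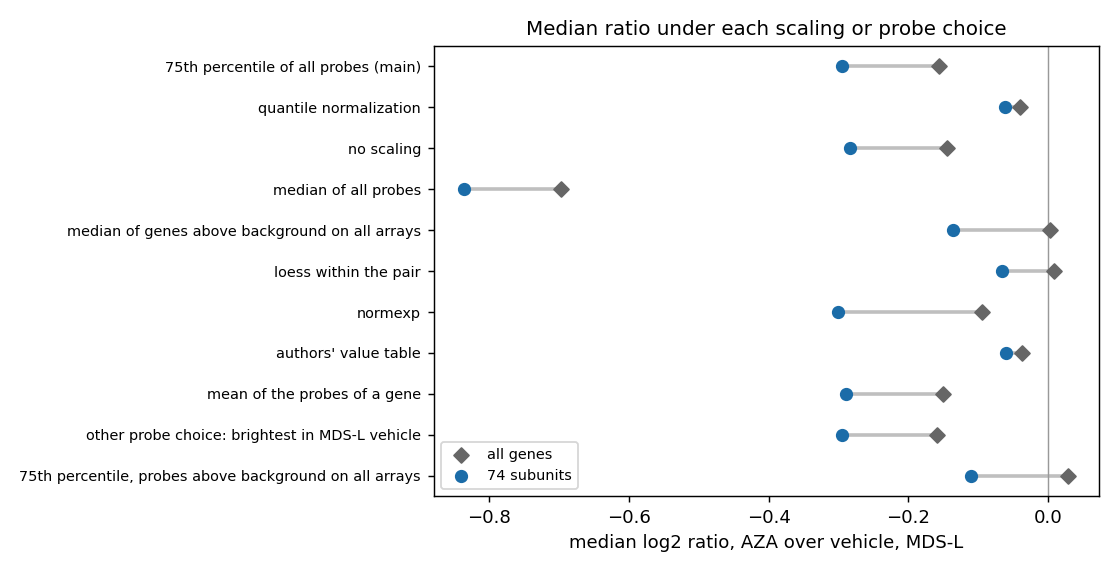
Median log2 ratio of AZA over vehicle in MDS-L cells (x axis) under each scaling or probe choice (rows), for the 74 subunits (circles) and all genes measured on both arrays (diamonds). The median of the subunits runs from -0.84 to -0.06 and that of all genes from -0.70 to 0.029, on the right side of 0 under 3 choices, and the subunits lie to the left of all genes in every row. Rows that only shift whole arrays have the same distance between the symbols by construction.

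At the 1.5-fold limit, none of the 74 subunits was higher with AZA in MDS-L (10.3% of all genes were) and 16 were lower (21.6%, against 18.3% of all genes). The 16 were NDUFV1, NDUFA1, NDUFA2, NDUFA5, NDUFA6, NDUFA7, NDUFA9, NDUFA10 and NDUFA12 of complex I, COX6A1 and COX6C of complex IV, and ATP5B, ATP5C1, ATP5F1, ATP5J and ATP5L2 of complex V. With the scaling, the count of lower subunits in MDS-L varied from 5 (within-pair loess) to 64 (median of all probes), and that of higher ones from 0 to 2. Only NDUFA1, NDUFA5, NDUFA9, COX6C and ATP5C1 of these were lower at that limit under all 9 scalings. In MDS-L/CDA, 3 subunits were higher with AZA (4.05%, against 7.90% of all genes), namely NDUFA6, NDUFA9 and ATP5J2. Another 5 were lower (6.76%, against 8.99%), namely NDUFA1, NDUFA5, NDUFB6, UQCRFS1 and ATP5C1. Without scaling, 10 were lower. Under all 9 scalings, NDUFA6 and ATP5J2 remained higher, and NDUFA1, NDUFA5, NDUFB6 and ATP5C1 remained lower. The shares of subunits called lower were near those of all genes in both lines.

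By complex, the MDS-L ratio of AZA over vehicle had a median of -0.34 for the 37 subunits of complex I, -0.25 for the 8 of complex III, -0.19 for the 13 of complex IV measured on both arrays, and -0.34 for the 16 of complex V. These directions held under all alternatives for complexes I and V only. The median of complex III reached 0.003 after quantile normalization, and that of complex IV was above 0 under 4 of 10 alternatives, up to 0.057 after loess. All 8 subunits of complex III were below 1 with the 75th percentile scaling, from -0.44 to -0.10, while UQCRB, UQCRQ, UQCR11 and UQCRC2 were above 1 under at least 1 other scaling. Among subunits measured on both arrays, those of complex I had the widest range, from -1.45 to 0.34. In MDS-L/CDA, the medians were 0.00, -0.23, -0.06 and -0.11 in the same order, and 7 of the 8 complex III subunits were again below 1 by their brightest probes. Other probes of UQCR10 (0.12 and 0.15), UQCRH (0.40) and UQCRB (0.62) were above 1 there. With the mean of the probes of a gene, the complex III median in MDS-L/CDA was -0.04. The differences between the complexes were not tested.

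**Figure D2:**
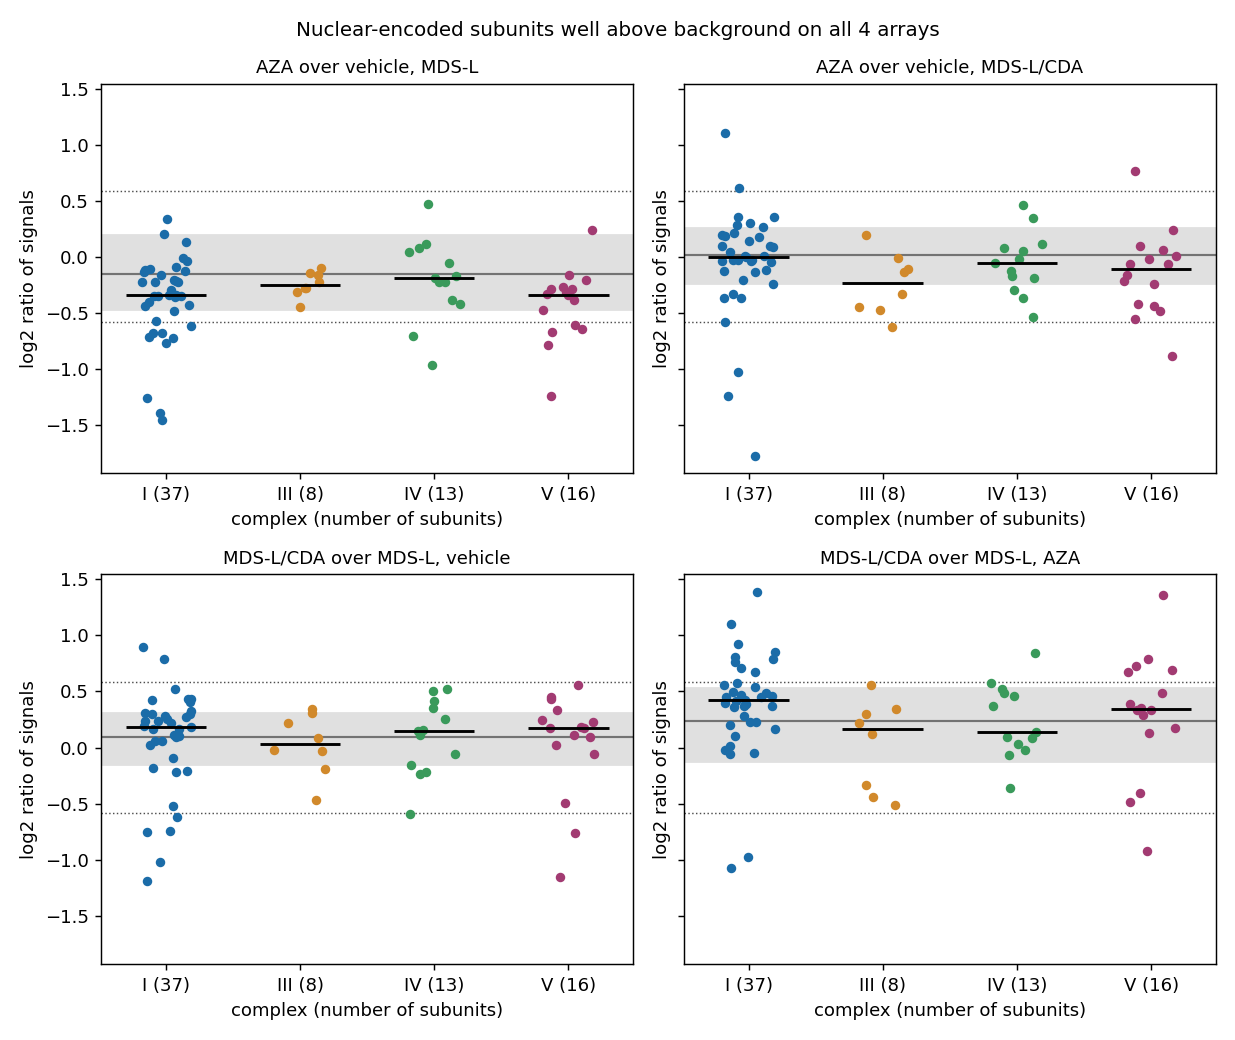
Log2 ratios (y axis) of the 74 subunits well above background on all 4 arrays, by complex (x axis), for the 4 comparisons; each point is 1 subunit, black bars are medians, the grey line and band are the median and quartiles of all genes, and dotted lines mark 1.5-fold. The subunits lie mostly within or near the band of all genes, with single members of complexes I and V far outside it.

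Of the subunits, 3 were lower with AZA at the 1.5-fold limit in both lines, namely NDUFA1, NDUFA5 and ATP5C1 (4.05% of 74, where 3.66% of 13962 genes measured on all arrays were). The 2 comparisons share no array. These 3 genes were chosen by that call, whose share is near that of all genes, and a shared regulation was not tested. Their upstream sequences are shown from RefSeq (GRCh38.p14), 250 bases before the start of the gene, 5′ to 3′ in the direction of transcription. Capitals mark the letters GCGCANGCG or CGCNTGCGC (the core of an NRF1 motif), CCGGAAG or CTTCCGG (an ETS motif) and AAGATGG or CCATCTT (the core of a YY1 motif). NRF1, ETS-family GABP and YY1 are known regulators of respiratory genes.
NDUFA1 (chrX:119871582-119871831, + strand): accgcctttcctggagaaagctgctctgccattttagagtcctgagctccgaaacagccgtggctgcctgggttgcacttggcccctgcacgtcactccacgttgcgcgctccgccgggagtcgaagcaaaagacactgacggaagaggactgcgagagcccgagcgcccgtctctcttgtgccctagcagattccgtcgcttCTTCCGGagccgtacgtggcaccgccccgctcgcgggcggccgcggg
NDUFA5 (chr7:123557819-123558068, - strand; the start nearest to the gene's end of 3 in RefSeq): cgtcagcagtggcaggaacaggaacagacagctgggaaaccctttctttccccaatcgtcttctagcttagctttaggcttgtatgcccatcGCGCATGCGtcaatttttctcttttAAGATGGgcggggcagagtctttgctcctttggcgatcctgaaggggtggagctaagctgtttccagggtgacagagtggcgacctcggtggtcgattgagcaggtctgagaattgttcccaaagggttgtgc
ATP5C1, now ATP5F1C (chr10:7787927-7788176, + strand): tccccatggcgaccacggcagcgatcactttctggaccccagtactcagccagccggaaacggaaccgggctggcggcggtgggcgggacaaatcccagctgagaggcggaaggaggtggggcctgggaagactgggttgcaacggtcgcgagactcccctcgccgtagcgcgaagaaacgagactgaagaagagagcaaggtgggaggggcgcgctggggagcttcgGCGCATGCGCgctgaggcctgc
NDUFA5 and ATP5C1 hold the NRF1 letters, and in ATP5C1 a pair of overlapping matches forms 1 run. NDUFA1 holds 1 ETS match, and NDUFA5 holds 1 YY1 match. Of the 62 subunits above background with such a window, 25.8% held the NRF1 letters, 22.6% the ETS letters and 8.06% the YY1 letters, against 9.20%, 11.6% and 3.28% of 15843 protein-coding genes. Those genes were not limited to ones above background, so the sets differ in that too. A match says only that the letters are present, and the 3 genes do not share one motif.

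NDUFA1, a small membrane subunit of complex I that is encoded on the X chromosome, gave a signal of 217 with vehicle and 91.0 with AZA in MDS-L, and of 187 and 92.0 likewise in MDS-L/CDA. With this scaling, its signal was thus about equal in both vehicle arrays and about equal in both AZA arrays. Under 2 of the 9 scalings, the vehicle signal was at least 1.5-fold lower in MDS-L/CDA than in MDS-L. NDUFA1 was 2.39-fold lower with AZA in MDS-L and 2.04-fold lower in MDS-L/CDA (log2 -1.26 and -1.03). It was at least 2-fold lower in both lines under all 9 scalings. Its probe covers chrX:119007330-119010509 (hg19) and spans an exon junction.

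NDUFA5, an accessory subunit of the peripheral arm of complex I, gave a signal of 35.8 with vehicle and 13.1 with AZA in MDS-L, and of 15.7 and 6.65 likewise in MDS-L/CDA. It was the lowest of complex I in MDS-L and was called lower in all 4 comparisons: 2.74-fold with AZA in MDS-L, 2.36-fold with AZA in MDS-L/CDA, and in MDS-L/CDA than in MDS-L by 2.28-fold without and 1.96-fold with AZA. The probe lies at chr7:123181169-123181228 (hg19).

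ATP5C1, the gamma subunit that forms the rotating central stalk of the ATP synthase, gave a signal of 17.9 with vehicle and 7.58 with AZA in MDS-L, and of 10.6 and 5.71 likewise in MDS-L/CDA. It was 2.36-fold and 1.85-fold lower with AZA in MDS-L and MDS-L/CDA (log2 -1.24 and -0.89), and 1.69-fold lower in MDS-L/CDA than in MDS-L without AZA. Its probe covers chr10:7839099-7840969 (hg19). Each of the 3 genes has a single probe, so no second probe could be set beside these values.

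COX6C and ATP5F1 were close to the same pattern. COX6C, a small subunit of complex IV, gave a signal of 188 with vehicle and 96.4 with AZA in MDS-L, and of 251 and 172 likewise in MDS-L/CDA, which is 1.96-fold and 1.46-fold lower with AZA. ATP5F1, the b subunit of the peripheral stalk, had 76.8, 44.6, 34.6 and 23.5 in the same order, which is 1.72-fold and 1.47-fold lower. ATP5F1 was also lower in MDS-L/CDA than in MDS-L, 2.22-fold without AZA and 1.89-fold with AZA.

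**Figure D3:**
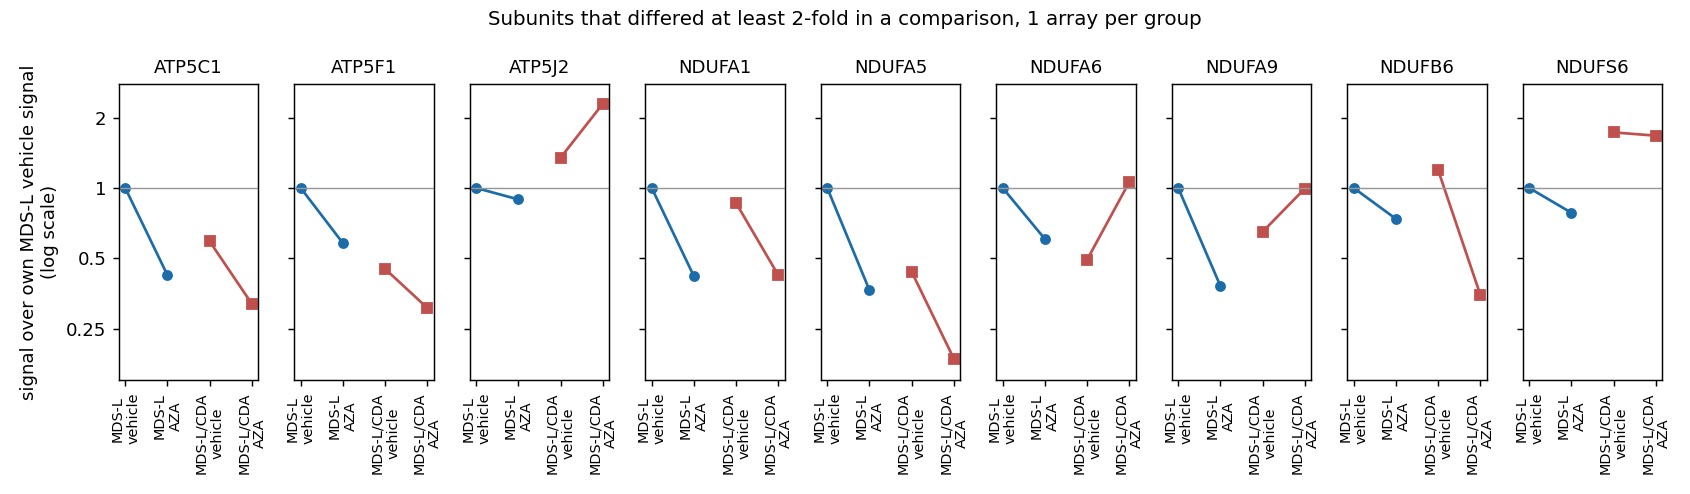
Signal of the 9 subunits that differed at least 2-fold in a comparison, on the 4 arrays (x axis), each divided by its own signal in MDS-L vehicle (y axis, log scale); circles are MDS-L, squares MDS-L/CDA, and lines join vehicle and AZA. NDUFA1, NDUFA5, ATP5C1 and ATP5F1 slope down in both lines, while NDUFA6 and NDUFA9 slope down in MDS-L and up in MDS-L/CDA.

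NDUFA6 and NDUFA9 went opposite ways in the lines. NDUFA6, an accessory subunit of the LYR protein family, gave a signal of 7.96 with vehicle and 4.81 with AZA in MDS-L, and of 3.92 and 8.43 likewise in MDS-L/CDA. It was 1.65-fold lower with AZA in MDS-L and 2.15-fold higher in MDS-L/CDA, and under 3 of the 9 scalings the MDS-L difference was under 1.5-fold. NDUFA9, an accessory subunit near the junction of the peripheral and membrane arms, had 14.3, 5.44, 9.28 and 14.2 in the same order. It was 2.63-fold lower with AZA in MDS-L and 1.53-fold higher in MDS-L/CDA, and under 3 of the 9 scalings the latter was under 1.5-fold. Such opposite calls, lower in MDS-L and higher in MDS-L/CDA, were found for 2 of 74 subunits and 0.931% of all genes. Whether the lines differed beyond error was not tested.

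Over the 74 subunits, the MDS-L log2 ratio of AZA over vehicle was below that of MDS-L/CDA in 57, with a median difference of -0.24. That share was 77.0%, against 62.8% of all 13962 genes, whose median difference was -0.15. The median log2 ratios of the subunits were -0.29 in MDS-L and -0.04 in MDS-L/CDA. Those of the 1285 genes at least as bright as the first quartile of the subunits were -0.25 and -0.01. The subunit medians were -0.06 and -0.0 after quantile normalization, and -0.06 and -0.0013 in the authors' value table. With the median of all probes they were -0.84 and -0.09. The parts of brightness and scaling in the difference between the lines were not tested. Across the 74 subunits, which share arrays and are not independent replicates, the ratios in the lines correlated with a Pearson r of 0.25 and a Spearman rho of 0.23, against 0.39 and 0.35 over all genes.

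**Figure D4:**
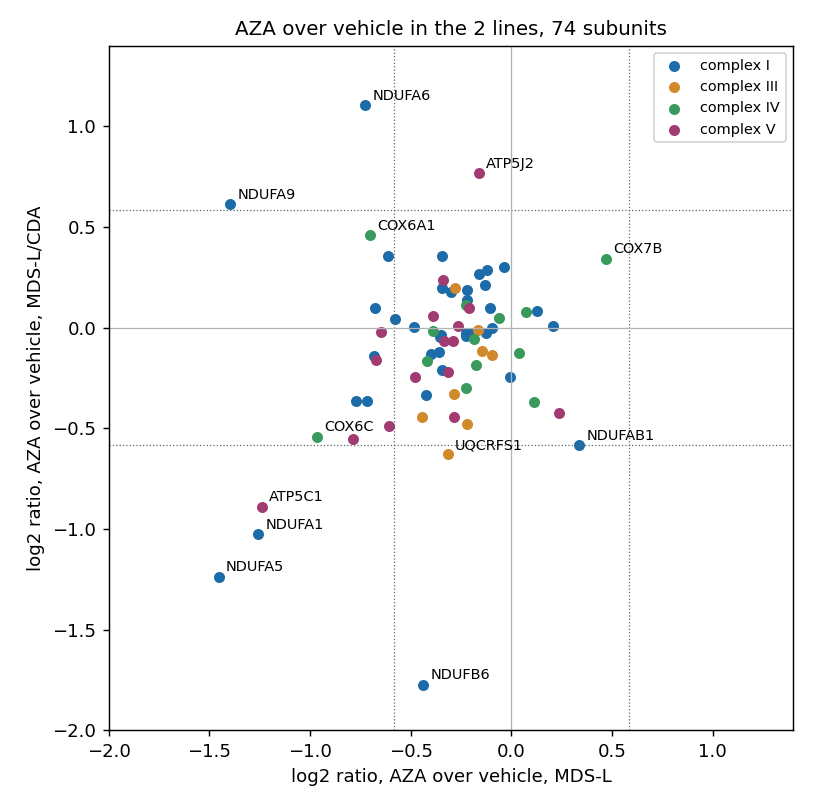
Log2 ratio of AZA over vehicle in MDS-L (x axis) and MDS-L/CDA (y axis) for the 74 subunits, colored by complex; dotted lines mark 1.5-fold. Most subunits lie in a cloud left of 0 on the x axis and near 0 on the y axis, NDUFA1, NDUFA5 and ATP5C1 at the lower left, NDUFA6 and NDUFA9 at the upper left, and NDUFB6 at the bottom.

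The core subunits carry the catalytic and redox sites or their frame. In complex I, NDUFV1, which binds NADH and FMN, gave a signal of 219 with vehicle and 136 with AZA in MDS-L, and of 271 and 246 likewise in MDS-L/CDA, and was 1.61-fold lower with AZA in MDS-L (log2 -0.68), with a log2 ratio of -0.14 in MDS-L/CDA. The iron-sulfur subunit NDUFS1 had 104, 95.0, 139 and 162. It did not reach 1.5-fold with AZA in either line, with log2 ratios of -0.13 in MDS-L and 0.21 in MDS-L/CDA. In complex III, UQCRC1, a core protein, had 85.6, 70.4, 90.6 and 104. UQCRFS1, the Rieske iron-sulfur protein, had 224, 180, 221 and 143, and was 1.55-fold lower with AZA in MDS-L/CDA, with a log2 ratio of -0.32 in MDS-L. UQCR10 was the lowest of the 8 complex III subunits in MDS-L and UQCRB the highest, at -0.44 and -0.10. Other probes of UQCR10 gave -0.12 and -0.22, and that of UQCRB gave 0.40. CYC1, a complex III subunit outside the name rule, had -0.52. UQCRH, the hinge protein next to cytochrome c1, was at -0.28, and its second probe at -1.47.

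In complex V, the F1 subunits that hold the catalytic sites differed in their ratios. ATP5A1 (alpha) had 393, 326, 535 and 539, with log2 ratios of -0.27 and 0.01 with AZA. ATP5B (beta) had 128, 80.4, 145 and 130, and was 1.59-fold lower with AZA in MDS-L, with a log2 ratio of -0.16 in MDS-L/CDA. The 3 genes of the membrane c ring, ATP5G1, ATP5G2 and ATP5G3, encode the same mature protein, and none reached 1.5-fold with AZA in either line. Their log2 ratios in MDS-L were -0.48, -0.21 and -0.33, and in MDS-L/CDA -0.25, 0.10 and -0.07. ATP5L, the g subunit, was the highest of complex V in MDS-L at 0.24, with -0.42 in MDS-L/CDA. ATP5L2 is a copy of ATP5L, so their probes may share signal.

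In complex IV, the widely expressed isoform of each family was measured on all arrays, while 5 genes did not reach the background flag anywhere, namely COX4I2, COX6A2, COX7B2, COX8C and NDUFA4L2. COX4I2 and NDUFA4L2 are known as hypoxia-related isoforms, COX6A2 and COX7A1 as those of heart and skeletal muscle, and COX7B2 and COX8C as testis isoforms. COX4I1 gave a signal of 164 with vehicle and 177 with AZA in MDS-L, and of 177 and 137 likewise in MDS-L/CDA, with log2 ratios of 0.11 and -0.37 with AZA. COX6A1 had 533, 327, 353 and 486, which is 1.63-fold lower with AZA in MDS-L and 0.46 higher on the log2 scale in MDS-L/CDA. COX6B1 and COX6B2, the latter known as a testis isoform, were both measured on all arrays, with MDS-L log2 ratios of 0.04 and -0.23. A second COX6B2 probe reached the background flag on none of the arrays.

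Apart from COX6C, described above, the remaining complex IV genes measured on all arrays were within 1.5-fold with AZA. COX7B was the highest of these in MDS-L, with 163, 226, 231 and 293 on the 4 arrays. It was 1.39-fold and 1.27-fold higher with AZA, below the limit in both lines, but past it in MDS-L under 5 of the 9 scalings. COX7A2 had log2 ratios of -0.17 and -0.19, COX7A2L -0.39 and -0.02, COX8A -0.23 and 0.11, COX5A -0.19 and -0.06, COX5B 0.07 and 0.08, and NDUFA4 -0.06 and 0.05.

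COX7A1 was the only subunit measured on some arrays but not all. It was well above background on the MDS-L AZA array alone, with a signal of 0.289, against 0.0626 with vehicle in that line and 0.0706 on both MDS-L/CDA arrays. Set against the lowest signal well above background on the MDS-L vehicle array, it was 2.28-fold higher with AZA in MDS-L. On the same footing, it was 1.27-fold higher in MDS-L AZA than in MDS-L/CDA AZA. These folds are approximate limits only, since a signal without the flag can lie above the lowest flagged one. NDUFA4L2 had 0.231 on the MDS-L AZA array without the flag, where the lowest flagged signal was 0.119. COX7A1 met the filter only through the array where it was high. Of the 4 striated muscle markers, all were well above background on at least 1 array and 1, CKM, on all 4 (1.32, 3.34, 0.433 and 1.04). ACTA1, flagged on 3 arrays, had 0.261, 0.268, 0.270 and 0.527. MYH7 had 0.0409, 0.210, 0.185 and 0.119, and TNNT2 0.1856, 0.2893, 0.1465 and 0.0667, each flagged on 1 array only. Their part in the COX7A1 signal was not tested.

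Between the lines without AZA, 2 subunits were higher in MDS-L/CDA than in MDS-L (2.70%, against 7.38% of all genes), NDUFS6 and NDUFAB1, and 8 were lower (10.8%, against 6.88%). The 8 were NDUFA5, NDUFA6, NDUFA7, NDUFA9, NDUFB5, COX6A1, ATP5C1 and ATP5F1, and all 8 were lower under each of the 9 scalings, while neither of the higher ones was higher under all. NDUFB5 has a second probe, which gave 0.28 in this comparison against -0.75 for the brighter one. The median over the 74 subunits was 0.17, against 0.09 over all 14511 genes. Over the 1285 genes at least as bright as the first quartile of the subunits, it was 0.13. The direction of the subunit median turned with the scaling, to -0.20 without scaling and -0.36 with the median of all probes. All genes were then at -0.27 and -0.43. NDUFAB1, the mitochondrial acyl carrier protein, gave a signal of 87.1 with vehicle and 110 with AZA in MDS-L, and of 162 and 108 likewise in MDS-L/CDA. Its MDS-L log2 ratio with AZA, 0.34, was the highest of complex I.

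With AZA in both, 15 subunits were higher in MDS-L/CDA than in MDS-L (20.3%, against 21.5% of all genes) and 3 were lower (4.05%, against 9.08%). Of the 15, only ATP5J2, NDUFA9 and NDUFS6 were higher under all 9 scalings, while all 3 lower ones were lower under each by their brightest probes. The median of the subunits was 0.37, against 0.23 over all 14543 genes. Over the 1285 genes at least as bright as the first quartile of the subunits, it was 0.35. Without scaling, the median of the subunits was -0.13, where that of all genes was -0.27. The comparisons between the lines share arrays with those of AZA, so their values are not independent of them. ATP5J2, the f subunit, was higher by 2.57-fold, with 66.4, 59.3, 89.5 and 152 on the 4 arrays. NDUFS6, a zinc-binding accessory subunit, was higher by 2.14-fold, with 86.3, 67.6, 149 and 145, so that both MDS-L/CDA arrays lay above both MDS-L arrays. NDUFA9 was higher by 2.61-fold. NDUFA5, ATP5F1 and NDUFB6 were lower, though the second probe of NDUFB6 gave 0.35.

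NDUFB6, an accessory subunit of the membrane arm, had the largest decrease with AZA in MDS-L/CDA of any subunit, 3.42-fold, with a signal of 43.4, 32.0, 51.9 and 15.2. Its second probe gave 22.1, 22.6, 30.0 and 28.8, a log2 ratio of -0.06 in the same comparison against -1.77. The probes of ATP5J2 also disagreed in MDS-L/CDA, at 0.77 and -0.77, and those of NDUFB8 at 0.10 and -0.69. For NDUFA12, both probes had ratios below 1 in both lines, at -0.77 and -1.30 in MDS-L and at -0.36 and -0.75 in MDS-L/CDA.

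These disagreements can hold error beyond spots as well as differences between the transcripts that the probes read, which were not told apart. Of the subunits, 16 had at least 2 probes well above background on all arrays. The range between probes of 1 subunit had a median of 0.37 (log2) for AZA over vehicle in MDS-L and 0.49 in MDS-L/CDA, against 0.36 and 0.39 over 3100 genes with 2 to 6 such probes. It reached 1.5-fold for 2 of the 16 subunits in MDS-L and 8 of the 16 in MDS-L/CDA, against 30.3% and 31.7% of those genes.

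**Figure D5:**
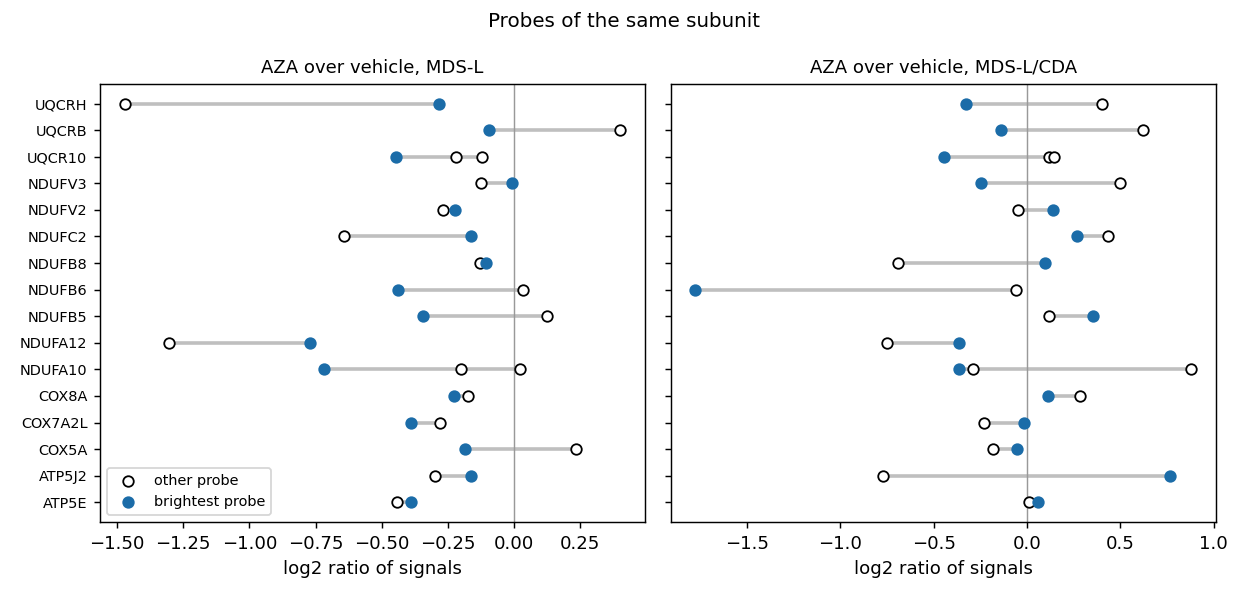
Log2 ratio of AZA over vehicle (x axis) from each probe well above background on all 4 arrays, for the 16 subunits with at least 2 such probes (rows), in MDS-L (left) and MDS-L/CDA (right); filled circles are the brightest probe, used elsewhere, and open circles the others. The probes of UQCRH lie far apart in MDS-L, at -0.28 and -1.47, and those of NDUFB6 and ATP5J2 in MDS-L/CDA.

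The 9 subunits that differed at least 2-fold in a comparison, NDUFA1, NDUFA5, NDUFA6, NDUFA9, NDUFB6, NDUFS6, ATP5C1, ATP5F1 and ATP5J2, shared features of their probes. All 9 had a probe dimmer than the median of the subunits, as did 28 of the other 65. The genomic span of the probe exceeded its length of 60 bases, so that it bridges an intron, for 7 of the 9 (77.8%) and for 14 of the other 65 (21.5%). Among genes measured on all arrays, such probes made up 6.90% of the 2536 past 2-fold and 7.92% of the 11405 others. The 9 lie on 8 chromosomes. They were chosen by the values, so these shares are a description, and the part of probe design in the differences was not tested.

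Of the 9 genes measured that are named like subunits but are not, 2 were lower with AZA in MDS-L (22.2%, against 18.3% of all genes). None was higher, where 10.3% of all genes were. NDUFAF5, an assembly factor of complex I, had the largest difference among members measured on both arrays of a comparison, with 6.12, 4.33, 1.51 and 6.27 on the 4 arrays. The MDS-L/CDA vehicle array stood apart from the other three, which makes the gene 4.16-fold higher with AZA in MDS-L/CDA and 4.06-fold lower in that line without AZA. The 2 lower with AZA in MDS-L were NDUFAF3 and NDUFAF7, also assembly factors, at -0.72 and -0.59.

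Among genes around the chain, the 10 mitochondrially encoded subunits with probes, all measured on all arrays, had a median log2 ratio of -0.34 with AZA in MDS-L and -0.11 in MDS-L/CDA, with 9 of 10 below 1 in each line. Of these, 2 were lower at 1.5-fold in MDS-L (20.0%, against 18.3% of all genes), ND6, whose signal was 5.89 with vehicle and 2.94 with AZA, and ND1 at -0.80. ND6 was also lower in MDS-L/CDA at -0.85, as 1 of 10 (10.0%, against 8.99%). A list of 6 genes, SDHA, SDHB, SDHC and SDHD of complex II, CYCS (cytochrome c) and CYC1, had medians of -0.24 and 0.11. SDHA, the FAD-binding subunit of succinate dehydrogenase, was at -0.42 and -0.62. CYC1 encodes cytochrome c1, a complex III subunit that the name rule does not reach, and was at -0.52 and 0.16.

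Assembly factors of complex IV had a median of -0.31 in MDS-L, with 8 of 23 lower (34.8%, against 18.3% of all genes) and none higher (10.3% of all genes were). COX11, which delivers copper to COX1, had -1.67 in MDS-L and 0.67 in MDS-L/CDA. The 7 complex I assembly factors outside the name rule had a median of -0.30, the 5 measured of complex III -0.41, and the 3 genes of complex V assembly and inhibition -0.02. Of these, NUBPL was lowest in complex I at -1.04, UQCC3 in complex III at -1.27.

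The 18 genes of mitochondrial protein import were all below 1 in MDS-L, with a median of -0.44 and 5 lower (27.8%, against 18.3% of all genes), TIMM13 lowest at -1.42. In MDS-L/CDA their median was -0.14, with 1 lower (5.6%, against 8.99% of all genes) and 1 higher, where 7.90% of all genes were. Among regulators of mitochondrial gene expression, 2 of 17 were lower in MDS-L (11.8%, median -0.33) and 4 of 18 in MDS-L/CDA (22.2%, median -0.07), against 18.3% and 8.99% of all genes. PPARGC1B, a coactivator of respiratory genes, had -0.30 in MDS-L and -1.61 in MDS-L/CDA. The citric acid cycle had a median of -0.39 in MDS-L, with 3 of 12 lower, and -0.17 in MDS-L/CDA, with 2 of 13 lower, against 18.3% and 8.99% of all genes. These medians all lie below those of all genes in MDS-L except that of complex V assembly, and they were not tested.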

How the data were processed

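RNA of 4 conditions was hybridized to 4 one-colour Agilent arrays on 1 slide, 1 array per condition. The authors deposited the scanner output of Agilent Feature Extraction 10.7.1.1, whose spots carry a background-subtracted intensity and quality flags and were not normalized between arrays. They also deposited a table of normalized intensity values. The columns of that table correlated with the scanner values of their arrays at 0.999 or above across probes (log2), and how it was made is not given in the sources used here. Probe coordinates refer to hg19, as the deposited files give them.

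After removal of control and outlier spots, the mean log2 signal of each probe was taken and scaled to the array's 75th percentile. The number of probes left out for outlier flags was 16, and 58185 were analysed, of which 32.6% to 36.5% were well above background per array. The brightest probe stood for a gene. Of the 91 genes, all matched a RefSeq symbol and 20 have another symbol now. Values were computed in Python 3.11.15, and limma 3.58.1 in R 4.3.3 was used for background correction (normexp, offset 50) and within-pair loess as alternatives, and no model was fitted because each group holds 1 array. The functions were tested on simulated data. Where only 1 array of a pair was well above background, the fold is an approximate limit. The dim signal was raised to the lowest one that passed the background flag on its array, if it lay under that.

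The members and lists were chosen with earlier results of these data known. Named genes are the highest and lowest of each complex in MDS-L, members past 2-fold in a comparison, the isoform families of complexes IV and V, and core subunits, 1 of which is not reported here. Members named in lists of calls, and second probes, were added after their values were seen. Alternatives changed the scaling, background correction, probe choice, filter and fold limit. With 1 array per condition the number of arrays limits the precision.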

Additional observations from a re-analysis of the deposited data

Results flagged for a closer look

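The following subunits differed in opposite directions with AZA in the 2 lines, at 1.5-fold or more in each. The log2 ratio of NDUFA6 was -0.73 in MDS-L and 1.11 in MDS-L/CDA. That of NDUFA9 was -1.40 in MDS-L and 0.61 in MDS-L/CDA. Each group is 1 array, and whether the lines differed beyond error was not tested. Both genes have a single probe, and in both the probe bridges an intron.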

How the results depend on the processing

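No paired analysis was possible because each group holds 1 array and no test was made. Medians here are over the subunits well above background on at least 1 array of the comparison. The median log2 ratio of the subunits for AZA over vehicle in MDS-L, -0.29, was -0.057 after quantile normalization, -0.065 after within-pair loess, -0.058 in the authors' value table, -0.11 with the 75th percentile over probes above background on all arrays (an alternative chosen after seeing the data), -0.13 when scaled to genes above background on all arrays and -0.83 with the median of all probes. In MDS-L/CDA, the median of -0.04 was -0.17 without scaling. For MDS-L/CDA over MDS-L with vehicle, the median of 0.17 turned to -0.20 without scaling, -0.36 with the median of all probes and -0.012 after normexp, and was 0.063 after quantile normalization, 0.052 after loess and 0.053 in the value table. With AZA, the median of 0.37 was 0.090 after quantile normalization, 0.056 after loess, 0.074 after normexp, 0.10 in the value table, 0.12 with the 75th percentile over measured probes, 0.19 when scaled to genes above background and -0.14 without scaling.

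The count of subunits lower with AZA in MDS-L, 16, was 6 after quantile normalization, 6 in the value table, 5 after loess, 7 with the median of genes above background on all arrays, 7 with the 75th percentile over measured probes, 64 with the median of all probes and 4 at 2-fold. The count of higher ones, 0, was 2 after quantile normalization, loess and in the value table, 1 under both scalings to measured genes or probes, and 3 without a filter. In MDS-L/CDA, the 5 lower were 10 without scaling, 8 with the median of all probes, 9 after normexp and 3 at 2-fold, and the 3 higher were 1 at 2-fold. The other 32 values of the medians differed by at most 0.1 (log2), a limit chosen after seeing the data, which for small medians can be over 1.5 times, and the other 38 counts stayed within 1.5 times.

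With the mean of its probes, the log2 ratio of ATP5J2 with AZA in MDS-L/CDA was -0.0018 in place of 0.77, and its other probe gave -0.77. The other probe of NDUFB6 gave 0.35 in place of -1.08 for MDS-L/CDA over MDS-L with AZA. The cause of these changes was not tested. The scalings differ in which probes set the level of an array, and with 1 array per condition the data do not tell which is right. Dim probes, such as that of COX7A1, allow approximate limits only.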
